A study of Mus musculus with 21 samples.

Results

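The proteins of the cytosolic ribosome were examined through the mRNAs that encode them. The genes were chosen by name: every mouse symbol made of Rpl or Rps followed by a digit, together with Rplp0, Rplp1, Rplp2 and Rpsa, without the Rps6k kinases and the pseudogene rows, and with at least 10 counts over all libraries. This gave 90 of the 27179 genes in the count tables: 43 large subunit proteins, 31 small subunit proteins, 3 stalk proteins, 12 paralogs or retrocopies and Rps19bp1, which carries the name only because its product binds Rps19. The 90 genes lie on 19 chromosomes, with 14 of them on chromosome 7.

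The study asked how podocytes, the filtering epithelial cells of the glomerulus, change in middle-aged mice and whether inhibiting the NLRP3 inflammasome alters them. Bulk mRNA was sequenced from the podocyte fraction of individual wild-type male C57BL/6J mice, which was pulled from digested kidney cortex with nephrin antibodies and magnetic beads. The groups were 6 untreated young mice of 4 months, 7 middle-aged mice injected with saline, and 8 middle-aged mice injected with 10 mg/kg of MCC950, a small-molecule NLRP3 inhibitor labelled NLRP3i. Both middle-aged groups were injected for 6 weeks from 18 months of age and were 19.5 months old at the end. The young mice were not injected, so age and injection cannot be told apart in any comparison with them, and the methods of the study give fewer mice at this age than the labels do.

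A ribosome is built of a small subunit, which reads the mRNA, and a large subunit, which joins amino acids, and each protein is needed in about equal number. In mice the genes for these proteins are scattered over the genome, and their mRNAs begin with a run of pyrimidines, the 5′ terminal oligopyrimidine or TOP tract, through which mTOR and the protein Larp1 set how strongly they are translated. The genome also holds many intronless copies of these genes, most of them silent.

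The start-site windows below are shown for genes described further on, to set starts with a pyrimidine run beside starts without one and a gene beside its retrocopy. Each runs from 10 bases before to 20 bases from the annotated start, 5′ to 3′ on the strand of the gene (RefSeq, GRCm38.p6). Capitals mark a run of at least 5 pyrimidines that reaches within 5 bases of the start.
Rplp2, chr7:141447641-141447670, plus strand: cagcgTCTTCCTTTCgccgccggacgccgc
Rps9, chr7:3704031-3704060, plus strand: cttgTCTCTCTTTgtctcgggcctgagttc
Rps6, chr4:86857348-86857377, minus strand: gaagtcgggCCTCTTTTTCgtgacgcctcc
Rpl15, chr14:18270967-18270996, minus strand: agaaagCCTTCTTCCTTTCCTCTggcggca
Rps27, chr3:90213629-90213658, minus strand: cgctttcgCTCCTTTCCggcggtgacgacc
Rps27rt, chr9:114982720-114982749, minus strand: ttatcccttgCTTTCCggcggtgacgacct
Rps28, chr17:33824543-33824572, minus strand: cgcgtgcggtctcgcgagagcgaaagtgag
Rps19bp1, chr15:80264287-80264316, minus strand: cggaagtagctcgccgcgtgtgggcggggc
The longest run of these was the 17 bases of Rpl15, and Rps28 and Rps19bp1 had no run of 5. Windows were found for 68 of the 90 genes, and 38 of these, or 55.9%, had such a run against 36.7% of the 27025 genes with a window. The letters CTTTCC, searched on the gene's own strand within 30 bases of the start and overlapping the run, stood in 19.1% of members and in 3.4% of all genes. CCGGAAG was searched on both strands of a longer window, from 250 bases before to 50 bases after the start. It stood in 38.2% of members, in 37.7% of the genes for mitochondrial ribosomal proteins and in 9.93% of all genes. These matches describe letters only, and an annotated start can lie some bases away from the one used in these cells.

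Library depth differed with the groups: young libraries held 27375870 to 36827823 counts, saline libraries 45772937 to 84876399 and MCC950 libraries 35440472 to 58247271. Mitochondrially encoded genes held on average 69.3% ± 9.82 (SD, n = 6) of all counts in young, 69.6% ± 5.32 (n = 7) in saline and 56.4% ± 4.46 (n = 8) in MCC950 libraries, so shares below are of the other counts. Of the 10 podocyte markers none was at 0 in any group, and their summed level was 708 to 1538 CPM (counts relative to the size of the library) in young, 298 to 525 in saline and 374 to 591 in MCC950 libraries. Proximal tubule markers reached higher sums in each group (1772 to 7114, 1976 to 4530 and 2745 to 8288 CPM), so RNA of tubule genes was also present in the fractions. Fewer cells of a type and less RNA per cell cannot be told apart in bulk samples.

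The ribosomal protein genes took a larger part of the counts in middle-aged mice, with or without MCC950. Their summed share of the non-mitochondrial counts was lowest at 0.524%, median 0.574% and highest at 0.718% in young libraries. It was 0.751%, 0.827% and 0.897% in saline libraries, and 0.657%, 0.799% and 0.901% in MCC950 libraries. Every saline library lay above every young library, whereas the lowest 2 MCC950 libraries, replicates 2 and 3, lay below the highest young library, replicate 6. The means were 0.590% ± 0.0725 (SD, n = 6), 0.816% ± 0.0590 (n = 7) and 0.787% ± 0.0832 (n = 8). The order of the 2 middle-aged groups depended on the denominator: as a share of all counts, mitochondrial counts included, the means were 0.178%, 0.247% and 0.344%.

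**Figure D1:**
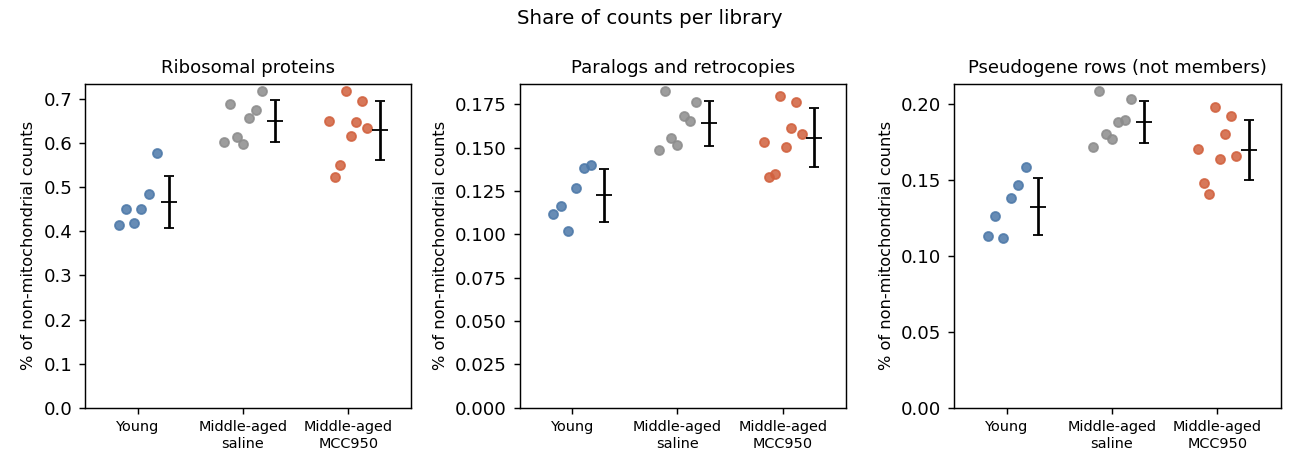
Percent of non-mitochondrial counts on the ribosomal proteins (left), on paralogs and retrocopies (middle) and on pseudogene rows, which are not members (right), with 1 point per library, the mean and SD beside the points, and a separate linear axis from 0 in each panel. The ribosomal proteins took a mean of 0.467% in young, 0.651% in saline and 0.629% in MCC950 libraries.

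Age was associated with a rise of most of these genes. Of the 88 genes that passed the filter on low counts, 76 were higher in saline than in young mice and none was lower (edgeR quasi-likelihood test, adjusted p under 0.05; at an unadjusted p under 0.05, 81 and 0, and with DESeq2 76 and 0), while 12.2% of all 16377 genes tested were called higher and 12.4% lower. The median log2 fold change of the 88 genes was 0.57, against 0.02 over all genes tested, and 87 of 88 estimates were positive. In 43 of them every saline library lay above every young library, which 4.51% of all genes did, and none lay wholly below, as 4.86% of all genes did. Young replicate 6 was the highest young library for 67 of the 88 genes. Without it 80 genes were called higher, the median was 0.66 and 69 genes had no overlap. The shares of all genes above were taken with all libraries and do not apply to that fit. The changes were modest, since 1 gene, Rplp2, exceeded a 2-fold change, which was the threshold of the study.

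Both subunits moved together. Of the large subunit proteins 38 of 42 tested were higher, with a median of 0.56, and of the small subunit proteins 28 of 31, with a median of 0.61. All 3 stalk proteins were higher, as were 7 of 11 paralogs or retrocopies, with a median of 0.35. The 7 genes of the subunits that did not pass were Rps2, Rps21, Rps27, Rpl9, Rpl13, Rpl31 and Rpl36, with log2 fold changes of 0.19 to 0.51, and the other 5 were Rps4l, Rpl3l, Rps27l, Rpl7l1 and Rps19bp1. Genes whose longest exon was under 200 bases had a median of 0.55, and those with an exon of 300 bases or more had 0.60.

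**Figure D2:**
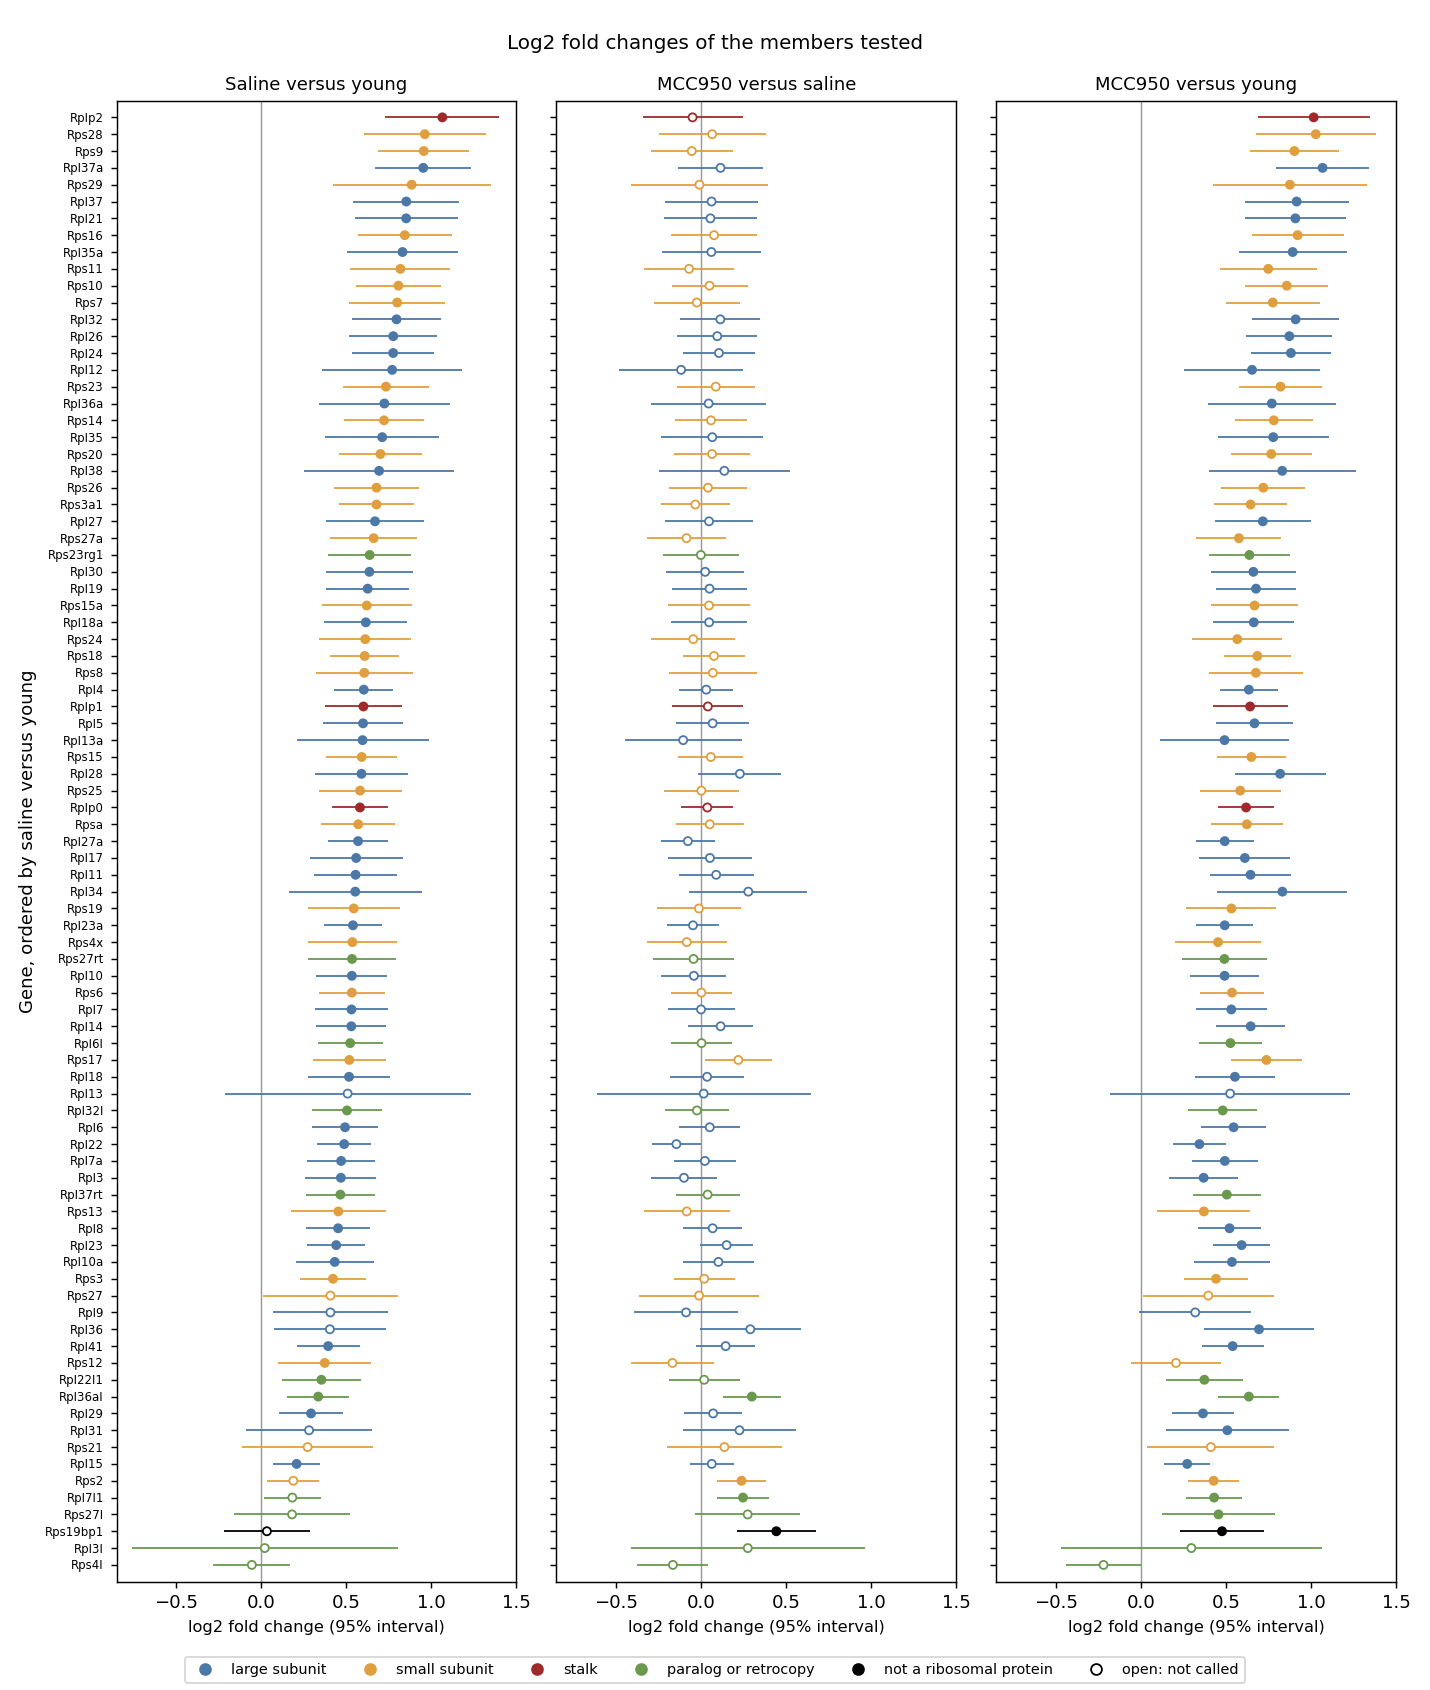
Log2 fold change (x axis) with its 95% interval for the genes tested (y axis, ordered by saline versus young; 1 of the 88 is not shown), in 3 comparisons. Filled points passed an adjusted p of 0.05. In the left and right panels all points but 1, Rps4l, lie above 0, and in the middle panel 4 are filled.

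The stalk is a flexible arm of the large subunit that recruits the elongation factors. Rplp2, one of its acidic proteins, rose the most of all 88 genes: its lowest, median and highest levels were 2.02, 2.20 and 4.39 CPM in young, 4.48, 5.41 and 5.78 in saline and 4.02, 5.18 and 6.27 in MCC950 libraries. Saline and young libraries did not overlap, and the highest young library, replicate 6, stood close to the saline range. The log2 fold change with age was 1.07 ± 0.16 (SE, adjusted p = 0.000105). Rplp0, the scaffold of the stalk, was at 85.9, 90.2 and 110.2 CPM in young, 125, 143 and 151 in saline and 124, 143 and 162.3 in MCC950 libraries, with no overlap of either middle-aged group with the young. Its log2 fold change with age was 0.58 ± 0.08 (adjusted p = 4.35e-05). Rplp1, the other acidic protein, rose by a log2 of 0.60 ± 0.11.

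Among the small subunit proteins Rps28 and Rps9 rose the most. Rps9, a protein of the small subunit body, was at 10.3, 12.5 and 18.6 CPM in young (lowest, median and highest), 20.6, 26.6 and 28.3 in saline and 18.1, 26.0 and 28.4 in MCC950 libraries. The saline libraries all lay above the young ones, and the lowest MCC950 library fell just under the highest young one. Its log2 fold change with age was 0.96 ± 0.13 (adjusted p = 3.6e-05). Rps28, at 0.96 ± 0.17, rose by as much, but its groups overlapped. Rps6, the small subunit protein that S6 kinase phosphorylates downstream of mTOR, went from 28.7, 29.8 and 38.2 CPM in young to 41.0, 44.7 and 49.6 in saline libraries without overlap, a log2 fold change of 0.53 ± 0.09 (adjusted p = 0.0004). Rpsa, which also serves as a laminin receptor, rose by 0.57 ± 0.10, again with no overlap.

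Among the large subunit proteins Rpl37a, a zinc-binding protein, rose the most, with levels of 2.32, 2.98 and 3.51 CPM in young, 5.01, 5.40 and 6.46 in saline and 3.95, 6.30 and 7.46 in MCC950 libraries. Both middle-aged groups lay wholly above the young group, and the log2 fold change with age was 0.95 ± 0.14 (adjusted p = 5.84e-05). Rpl5 and Rpl11, which carry the 5S rRNA into the ribosome and can bind Mdm2, rose by 0.60 ± 0.11 and 0.56 ± 0.12. Rpl15 rose by less than any other subunit gene that passed. It was at 23.9, 26.1 and 29.0 CPM in young and 28.1, 29.8 and 35.7 in saline libraries, which overlapped. Its log2 fold change was 0.21 ± 0.07 (adjusted p = 0.0265).

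**Figure D3:**
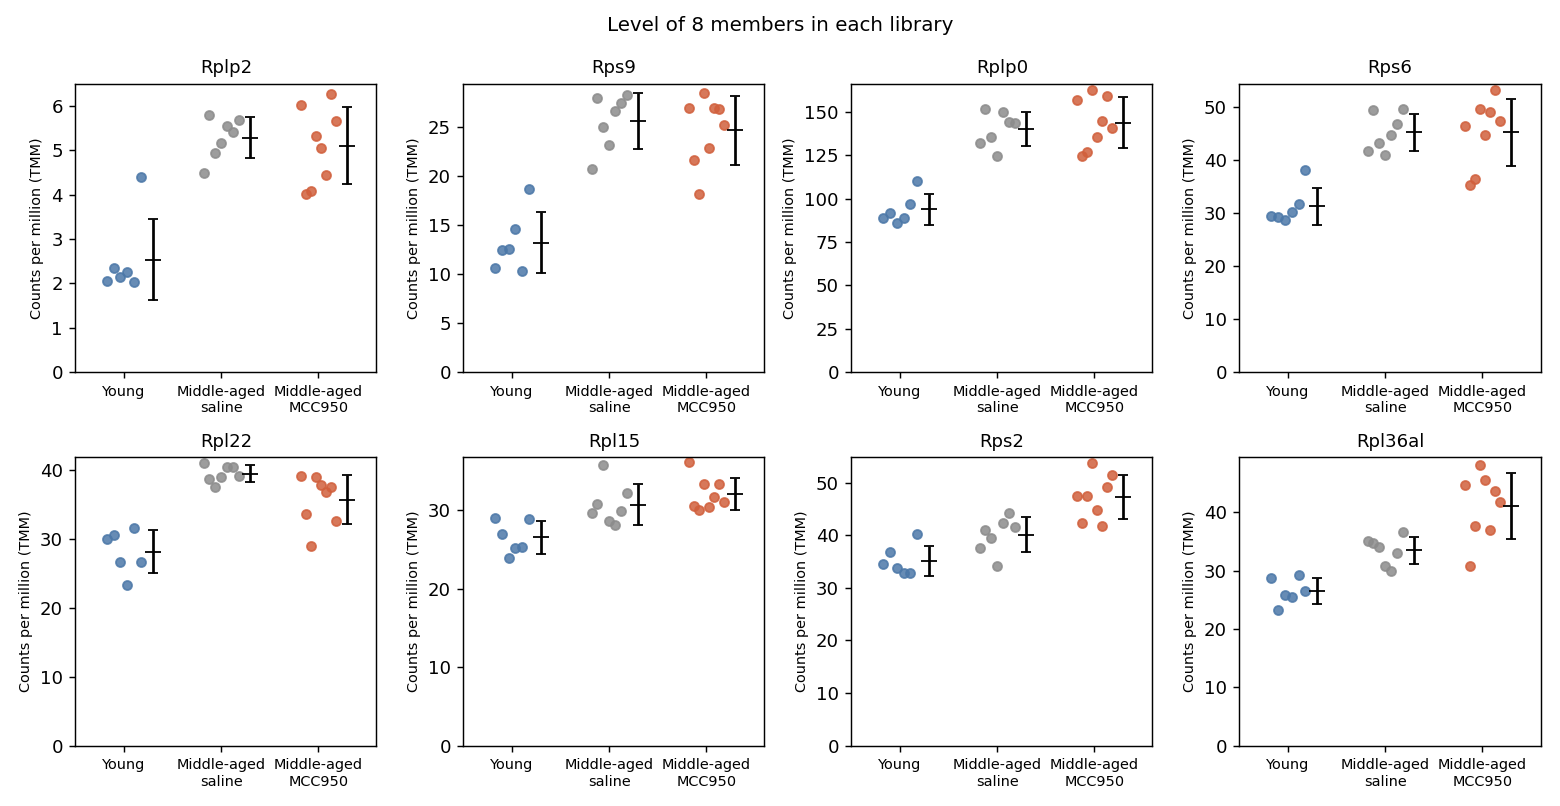
Level of 8 genes in CPM after TMM scaling (y axis from 0), with 1 point per library and the mean and SD beside the points. For Rplp2, Rps9, Rplp0 and Rps6 all saline libraries lie above all young libraries. The highest library is a saline one for Rpl22 and an MCC950 one for every other gene shown.

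The lowest estimates with age belonged to genes that are not standard parts of the ribosome. Rps4l, an intronless copy of Rps4x, was at 9.16, 10.1 and 12.8 CPM in young and 7.89, 10.5 and 12.1 in saline libraries, with a log2 fold change of -0.05 ± 0.11 (95% interval -0.28 to 0.17). Rpl3l, the muscle paralog of Rpl3, was at most 1.02 CPM in any library, with medians of 0.381 in young and 0.542 in saline libraries, and its estimate of 0.02 ± 0.38 changed sign in 8 of 21 fits that left out 1 library. Rps19bp1, a cofactor of the deacetylase SIRT1, was at 3.01, 4.58 and 5.35 CPM in young and 3.79, 4.45 and 4.89 in saline libraries, a log2 fold change of 0.03 ± 0.12 (95% interval -0.22 to 0.29), which turned slightly negative without young replicate 2 (-0.02) or 6 (-0.06). Rps27l, a p53-inducible paralog of Rps27, and Rpl7l1, a paralog of Rpl7, both had an estimate of 0.18 and did not pass (adjusted p = 0.452 and 0.102), although Rpl7l1 did so without MCC950 replicate 2 (adjusted p = 0.0467). The paralog Rpl22l1 rose by 0.35 ± 0.11, a call lost without young replicate 3 (adjusted p = 0.0634), young replicate 4 (0.0514) or saline replicate 7 (0.0605).

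Levels were taken per kilobase of exon (GENCODE vM21, RefSeq-matched transcripts) and averaged over the 3 groups. Those of the 77 standard genes ran from 0.0967 to 432 CPM per kb with a median of 16.2. The highest was Rpl41, which encodes a very short peptide at the joint of the subunits, with means of 344, 452 and 500.2 CPM per kb in young, saline and MCC950 libraries and a log2 fold change with age of 0.39 ± 0.09. Next came the retrocopy Rps27rt at 306, 444 and 430.1 CPM per kb, Rplp1 at 209, 317 and 326, Rpl8, a protein near the catalytic centre, at 174, 239 and 250.3 (log2 fold change 0.45 ± 0.09) and the intronless Rpl32l at 129, 182 and 179. All 5 rose with age. Rpl39 and Rpl39l did not pass the filter, with 64 and 30 counts over all 21 libraries, or highest levels of 0.311 and 0.152 CPM. The range of these levels was not read as one of mRNA numbers, since reads can fall on copies of a gene. Among the 15 of 30 pseudogene rows above their parent, Rpl13-ps6 held 62546 counts against 1111 and Rpl34-ps1 held 93093 against 3873. The exon length used also enters each level, with a longest exon of 4822 bases for Rps15a.

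Several of these levels cannot be assigned to 1 gene. Rps27rt held 163350 counts over all libraries and its parent Rps27 held 2222, although the transcripts were identical over 341 aligned bases. Rpl37rt held 132922 counts and Rpl37 3426, with 99.7% identity over 344 bases, and Rpl32l held 71501 against 22637 for Rpl32, with 97.5% over 398 bases. Rps23rg1, a retrotransposed gene read from the other strand, held 35484 counts against 16999 for Rps23 and matched the opposite strand of Rps23 over 418 bases at 99.5%; the strand setting of the counting is not given in the sources used here. Each parent of these copies has 4 exons with the longest of Rps27 at 111 bases, while Rps27rt and Rpl32l have 1, and the aligner places reads without splitting them over introns. Its part in these counts was not tested. Values of these pairs, of Rpl6 and Rpl6l, and of the pseudogene rows are therefore uncertain gene by gene.

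**Figure D4:**
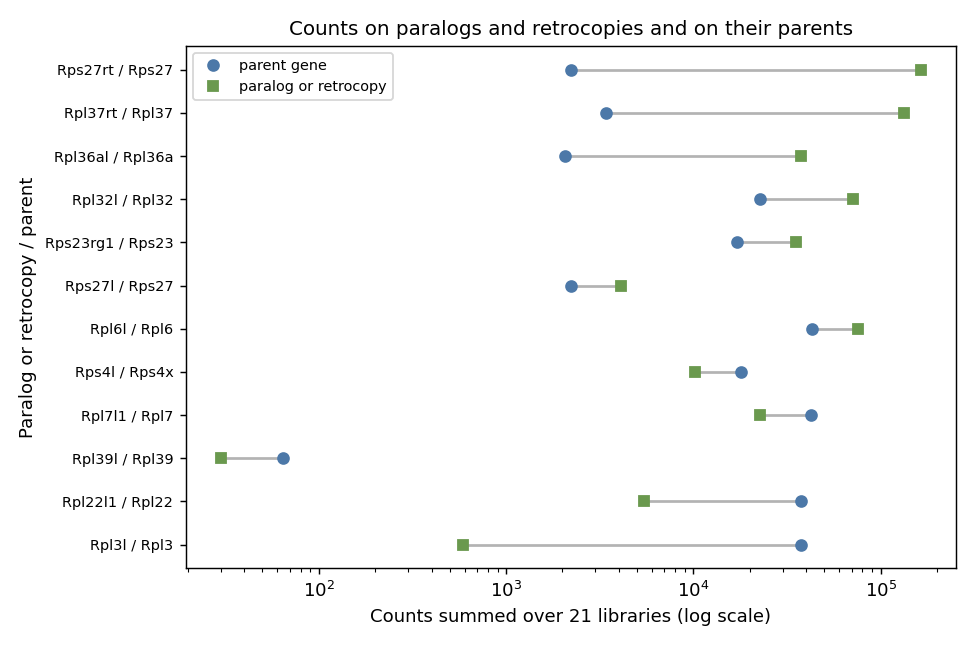
Counts summed over the 21 libraries (x axis, log scale) for each of 12 paralogs or retrocopies (squares) and its parent gene (circles). In 7 of the 12 pairs the copy held more counts than its parent, by 73.5-fold for Rps27rt.

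Estimates with age were positive on both sides of these pairs, which are not separate evidence where their reads cannot be told apart. Rpl37 rose by a log2 of 0.85 ± 0.15 and Rpl37rt by 0.47 ± 0.10, Rpl32 by 0.80 ± 0.12 and Rpl32l by 0.50 ± 0.10, Rps23 by 0.73 ± 0.12 and Rps23rg1 by 0.64 ± 0.12, Rpl36a by 0.72 ± 0.19 and Rpl36al by 0.34 ± 0.09. Rpl6 and Rpl6l rose by 0.49 ± 0.09 and 0.52 ± 0.09. Rps27rt rose by 0.53 ± 0.12, and Rps27 had an estimate of 0.41 ± 0.19 that did not pass (adjusted p = 0.124). Of the 28 pseudogene rows tested, 27 were called higher, where 12.2% of all genes were, with a median of 0.60. They may hold reads of the same mRNAs as their parents. In 15 of 30 rows with 10 or more counts the pseudogene held more counts than its parent. With pseudogene counts added to the parents, 79 members were called higher with age.

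The levels of MCC950 mice stayed close to those of saline mice. Between MCC950 and saline mice 4 of 88 genes were called higher, below the 11.9% of all genes tested, and none was called lower, against 4.86% (5 and 0 at an unadjusted p under 0.05, 4 and 0 with DESeq2). Without saline replicate 4 none was called higher. No gene had groups without overlap, which 1.15% of all genes had upward and 0.586% downward. Without MCC950 replicate 2 there were 3 such genes, for which no share of all genes is given. The median log2 fold change was 0.05, with 0.003 over all genes, and 62 of 88 estimates were positive. For 80 of the 88 genes the 95% interval lay within 0.5 of 0 on the log2 scale, so larger effects lie outside the interval for most members.

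The named estimates were small. Rplp0 differed by a log2 of 0.04 (95% interval -0.12 to 0.19) and Rplp2 by -0.05 (-0.34 to 0.24). The lowest estimates were Rps12 (-0.17 ± 0.12), Rps4l (-0.17 ± 0.10), Rpl22 (-0.14 ± 0.07), Rpl12 (-0.12 ± 0.18) and Rpl13a (-0.11 ± 0.17), and none passed. Rpl22 was at 37.5, 39.2 and 40.9 CPM in saline and 29.0, 37.1 and 39.1 in MCC950 libraries, which overlapped. Rps4l was called lower only when all libraries were thinned to equal depth (-0.30, adjusted p = 0.0369).

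Of the 4 genes that were higher with MCC950, 2 are paralogs and 1 is not a ribosomal protein. Rps19bp1 rose the most, from 3.79, 4.45 and 4.89 CPM in saline to 4.68, 6.26 and 6.90 in MCC950 libraries, with overlapping groups and a log2 fold change of 0.44 ± 0.11 (adjusted p = 0.0129). The call was lost without saline replicate 4 (adjusted p = 0.0517). Rpl36al went from 30.0, 34.1 and 36.5 to 30.8, 42.6 and 48.1 CPM, a log2 fold change of 0.30 ± 0.08 (adjusted p = 0.0175) that was lost without saline replicate 4 (0.0723) or 6 (0.0551). Rpl36 (0.29 ± 0.14), Rpl34 (0.28 ± 0.17) and Rpl3l (0.27 ± 0.33) came next and did not pass, and Rpl34 turned to -0.08 when pseudogene counts were added.

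Rps2, a small subunit protein at the mRNA entry, was named after its values were seen, as the only standard ribosomal protein called with MCC950. It was at 32.8, 34.1 and 40.1 CPM in young, 34.2, 41.0 and 44.2 in saline and 41.8, 47.4 and 53.7 in MCC950 libraries, so that the MCC950 and young groups did not overlap and the saline group lay between and overlapped both. Its log2 fold change over saline was 0.24 ± 0.07 (adjusted p = 0.0226) and was lost without saline replicate 1, 3, 4 or 7 (adjusted p up to 0.104). With age its estimate of 0.19 ± 0.07 passed without young replicate 6 or saline replicate 4 (adjusted p = 0.0452 and 0.0387). Rpl7l1 had 0.25 ± 0.07 (adjusted p = 0.0286), and its call was lost in 12 of 21 fits that left out 1 library (adjusted p up to 0.144), in 5 of them without a young library. In thinned libraries Rps19bp1 kept its call (adjusted p = 0.0383), whereas Rps2 (0.133), Rpl36al (0.0768) and Rpl7l1 (0.157) lost theirs.

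Against young mice the MCC950 mice showed much the same rise. Of 88 genes 81 were called higher, against 21.8% of all genes tested, and none lower, against 16.5% (83 and 1 at an unadjusted p under 0.05). DESeq2 called 81 higher and 1, Rps4l, lower. The median log2 fold change was 0.63, with 0.08 over all genes. In 22 genes every MCC950 library lay above every young library, as in 3.28% of all genes, and in none below, as in 4.66%. Without young replicate 6 the 22 became 52, and without MCC950 replicate 3 they became 35. The comparisons share libraries, the young ones with the comparison by age and the MCC950 ones with the comparison by treatment, and are therefore given side by side only. Among the highest were Rpl37a (1.07 ± 0.13), Rps28 (1.03 ± 0.17), Rplp2 (1.02 ± 0.16) and Rps16 (0.92 ± 0.13). The lowest were Rps4l (-0.22 ± 0.11), Rps12 (0.21 ± 0.13), Rpl15 (0.27 ± 0.07), Rpl3l (0.30 ± 0.37) and Rpl9 (0.32 ± 0.16), of which only Rpl15 passed. Rpl9 passed without young replicate 6 (0.50, adjusted p = 0.0057), Rps12 did so with pseudogene counts added (0.60, adjusted p = 0.000434), and Rps4l was called lower without young replicate 5, young replicate 6 or saline replicate 4 (adjusted p = 0.049, 0.0324 and 0.0361).

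By the 3 calls together, 74 genes were called higher in both middle-aged groups than in young mice and were not called between the middle-aged groups. A missing call does not show equal levels. Shares of all genes with these patterns are not given here, so the counts stand without a background. Rpl36al alone was called higher in all 3 comparisons. Rpl7l1, Rps19bp1 and Rps2 were called higher in MCC950 mice than in both saline and young mice, but not with age. Rpl31, Rpl36 and Rps27l were called only in MCC950 over young mice, and Rps12 only with age.

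Proteins of the ribosome outside the name rule moved in the same direction with age. Fau, which encodes the small subunit protein eS30 fused to a ubiquitin-like part, rose by a log2 of 0.83 ± 0.18, and the small subunit scaffold Rack1 by 0.58 ± 0.10. Both were also higher in MCC950 than in young mice, and neither was called between MCC950 and saline.

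Of 18 translation factors and other genes listed as of the TOP class, 12 were called higher with age and none lower. Their median was 0.34. Over all genes tested, 12.2% were higher and 12.4% lower. By the search used above, 5 of the 12 genes on this list that had a window, or 41.7%, held a pyrimidine run at the annotated start. Eif3h, a subunit of the initiation factor eIF3, rose by 0.54 ± 0.08 and Tpt1, which encodes the translationally controlled tumour protein, by 0.51 ± 0.12. With MCC950 none of the 18 was higher than in saline and 1 was lower, the splicing regulator Hnrnpa1 (-0.48 ± 0.10), whose libraries did not overlap. Against young mice 12 were higher in MCC950 mice, led by Tpt1 (0.81 ± 0.12) and Eif3h (0.62 ± 0.08), and Hnrnpa1 was lower (-0.36 ± 0.10). Among all genes 11.9% were higher and 4.86% lower over saline, and 21.8% and 16.5% over young mice.

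Of 14 initiation factors outside that list, 3 rose with age, led by the helicase Eif4a1 (0.37 ± 0.11) and the subunit joining factor Eif5b (0.26 ± 0.07), and Eif4g2 fell (-0.22 ± 0.06); the call of Eif4a1 was lost without young replicate 3 (adjusted p = 0.0533). With MCC950 4 of 14 rose over saline, led by the cap-binding protein Eif4e (0.27 ± 0.07) and the scaffold Eif4g1 (0.21 ± 0.05), where Eif4e was lost without saline replicate 4 or 6 (adjusted p = 0.0698 and 0.0626) and was at 0.18 in thinned libraries (0.135). In MCC950 over young mice 7 rose, led by Eif4a1 (0.53 ± 0.10) and Eif6 (0.44 ± 0.08), and Eif4a2 fell (-0.25 ± 0.06). The shares of all genes tested were 12.2% higher and 12.4% lower with age. They were 11.9% and 4.86% for MCC950 over saline, and 21.8% and 16.5% for MCC950 over young.

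Of 28 genes for ribosome biogenesis, 7 rose with age and none fell, with a median of 0.11. Among all genes tested 12.2% rose and 12.4% fell. Fbl, the methyltransferase fibrillarin, rose by 0.69 ± 0.21 and Pes1, a factor of large subunit assembly, by 0.45 ± 0.12, and Fbl was lost without young replicate 3 (adjusted p = 0.0517). Over saline 3 of 28 rose with MCC950, where 11.9% of all genes did, led by Nop10 (0.43 ± 0.11) and Bop1 (0.32 ± 0.09); Bop1 was lost in 5 of 21 fits without 1 library, each a saline library (replicates 1, 2, 3, 4 and 6). In thinned libraries both calls were lost, with Nop10 at 0.38 (adjusted p = 0.0542) and Bop1 at 0.18 (adjusted p = 0.32). Over young mice 16 of 28 rose with MCC950, where 21.8% of all genes did, led by Nhp2 (0.87 ± 0.16) and Fbl (0.72 ± 0.20).

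Of 16 genes of the mTOR pathway, 1 rose and 2 fell with age, where 12.2% of all genes rose and 12.4% fell, so these counts do not set the list apart. Eif4ebp1, a translation repressor that mTOR switches off, rose by 0.53 ± 0.09. Eif4ebp2 (-0.19 ± 0.07, adjusted p = 0.0475) and Tsc2, an inhibitor of mTOR (-0.16 ± 0.06, adjusted p = 0.0499), fell by a margin that was lost in 12 and 9 of the 21 fits without 1 library (adjusted p up to 0.097 and 0.0875). With MCC950 3 rose over saline, led by Mtor itself (0.53 ± 0.14) and Akt1s1 (0.42 ± 0.12), where 11.9% of all genes rose. Over young mice 4 rose, led by Eif4ebp1 (0.49 ± 0.09) and Akt1s1 (0.41 ± 0.12), and Rictor fell (-0.19 ± 0.07), a call lost without MCC950 replicate 2, 4 or 8 (adjusted p up to 0.0697). Since 21.8% of all genes rose and 16.5% fell over young mice, these counts do not set the list apart either.

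Ribosomal proteins of mitochondria, which are encoded in the nucleus by other genes, gave other counts. With age 3 of 77 tested were higher, with a median of 0.06, where 76 of 88 cytosolic genes were. With MCC950 over saline 44 of 77 were higher and none lower, with a median of 0.30, where 4 of 88 cytosolic genes were. Mrps21 had the lowest adjusted p of these (0.65 ± 0.11). Over young mice 60 of 77 rose, with a median of 0.38. Among all genes tested 12.2% were higher with age, 11.9% with MCC950 over saline and 21.8% with MCC950 over young. The share called lower with MCC950 over saline was 4.86%. The difference between the cytosolic and mitochondrial genes was not tested.

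**Figure D5:**
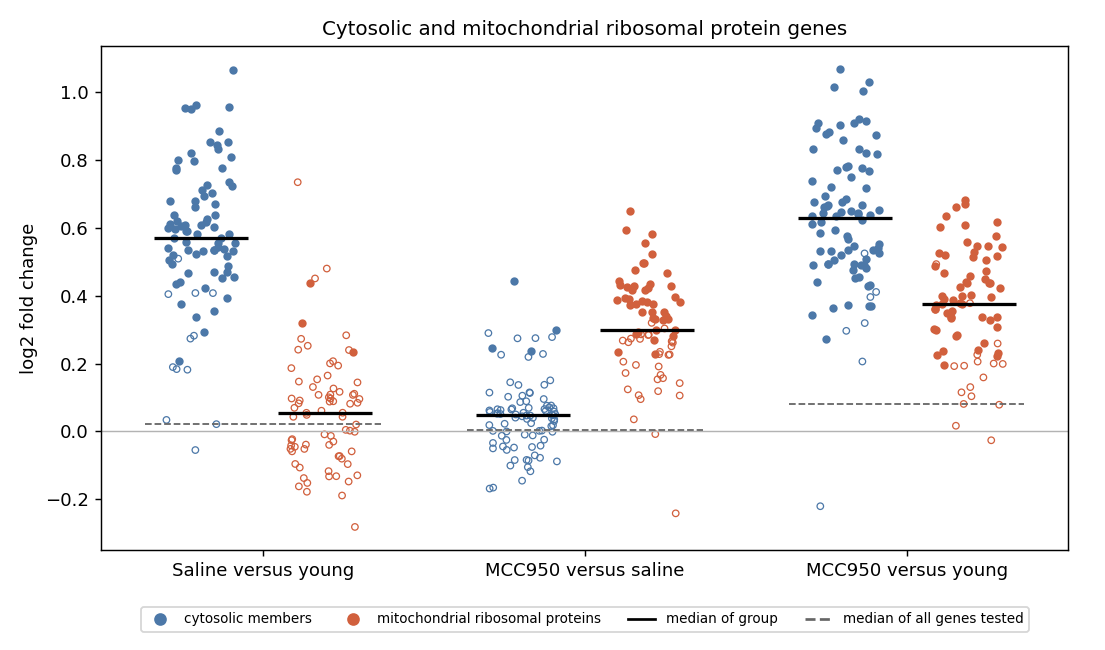
Log2 fold change (y axis) of the 88 cytosolic genes and of 77 mitochondrial ribosomal protein genes in the 3 comparisons. Filled points passed an adjusted p of 0.05, black bars are medians of each set and dashed lines medians of all genes tested: the cytosolic medians are 0.57, 0.05 and 0.63, and the mitochondrial ones 0.06, 0.30 and 0.38.

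Markers of other cells moved with age as well, where 12.2% of all genes tested rose and 12.4% fell. B and plasma cell markers, 3 of 6 of which rose, had a summed level of 39.1 to 173 CPM in young and 398 to 574 in saline libraries, without overlap, and 111 to 645 in MCC950 libraries. T cell markers (3 of 6 rose) summed to 4.41 to 13.5, 12.6 to 21.8 and 5.58 to 69.3 CPM. The 69.3 was MCC950 replicate 8 alone, and the next highest MCC950 library, replicate 6, was at 19.5. Macrophage and myeloid markers (2 of 6 rose) summed to 327 to 1566, 1206 to 2965 and 706 to 2859.

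Markers of podocytes (9 of 10), endothelium (6 of 6), mesangium and smooth muscle (4 of 4) and collecting duct (3 of 4) fell with age, and of the loop and distal tubule 1 of 4 fell. Endothelial sums were 384 to 697, 176 to 321 and 162 to 364 CPM in young, saline and MCC950 libraries, mesangial ones 84.3 to 121, 27.6 to 54.7 and 23.6 to 58.4, and those of the collecting duct 428 to 983, 291 to 511 and 183 to 516. Loop and distal tubule sums were 2580 to 3697, 2766 to 4154 and 2054 to 3753. None of 10 proximal tubule markers and none of the 3 red cell markers found passed with age, the latter with sums of 33.6 to 78.7, 24.2 to 135 and 17.1 to 73.7. With MCC950 over saline 4 podocyte and 6 proximal tubule markers rose and 2 of the loop and distal tubule fell. Among all genes 11.9% rose and 4.86% fell. The part of these cells in the levels of the ribosomal protein genes was not tested.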

How the data were processed

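For the TruSeq libraries the authors used Trim Galore for trimming, Bowtie2 for placing reads on mm10 and featureCounts for gene totals. The deposited tables hold these raw counts for 27179 genes by Entrez Gene number. Annotation release, strand setting and treatment of reads with several placements are not given in the sources used here. Bowtie2 does not split reads over introns, so copies of a gene without introns can take reads of its mRNA. A table of normalized values for 20 of the 21 libraries was not used.

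Gene numbers were named from RefSeq on GRCm38.p6 (25275) and GENCODE vM21 (18), and 1886 had no name. The tests were run in edgeR 4.0.16 under R 4.3.3 (scaling by TMM, filterByExpr by group, quasi-likelihood F test, all 3 groups in one fit, Benjamini-Hochberg adjustment over 16377 genes). CPM values are counts relative to the TMM-scaled library size. The 95% intervals use the standard error and degrees of freedom of that fit. Group labels came from the sample labels. Each library is from 1 mouse, and intervals and p-values cover the spread between libraries. No 2 libraries were duplicates, as chi-square divided by its degrees of freedom was at least 17.7 for any pair of 1 group. Copies and parents were aligned locally in Biopython 1.88. On simulated data for saline versus young (16377 genes) 27 of 50 genes changed by 1.5-fold, 86 of 100 by 2-fold and 50 of 50 by 4-fold were recovered, so that changes of the size seen here are missed in part.

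Named genes were the 5 highest and 5 lowest fold changes in each comparison, the 5 highest levels per kb, the stalk proteins, Rpsa, Rpl5, Rpl11, Rps6, all paralogs and Rps19bp1, genes that did not pass the filter, Fau and Rack1, and the 2 called genes of largest change in each direction from each list. Some genes that the rule names are not reported here. The members and lists were chosen with earlier results of these data known. Alternatives were DESeq2 1.42.0, other size factors, filters and thresholds, a replicate block, fits without mitochondrial genes, with 2 groups, with pseudogene counts added, with libraries thinned to 5804891 counts, and without each library. Rpl6l had no exon length, and 22 genes had no start-site window.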

Additional observations from a re-analysis of the deposited data

Results flagged for a closer look

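Single libraries of a group stood apart for some of the named genes, by the gap to the next library relative to the range of the group (Dixon's test at 95%). Over 111 groups of libraries tested 10 did so, and 6 of the 10 concerned young replicate 6. Chance gives about 1 in 20 for separate trials, which these are not, since the genes share the same libraries. Young replicate 6 was the highest young library for 67 members. In that library Rplp2 was at 4.39 CPM, against 2.02 to 2.35 in the other young libraries. Rps6 was at 38.2 CPM there, against 28.7 to 31.8, and Rpsa at 73.5, against 47.7 to 56.8. Rpl5 was at 19.9 CPM in it, against 12.3 to 14.1, Rpl34 at 4.6, against 1.54 to 2.55, and Rpl22l1 at 5.1, against 3.71 to 4.18. Young replicate 1 held Rps27l at 5.05 CPM, against 2.41 to 3.18 in the others. Saline replicate 1 had the lowest Rps28 of its group, 3.14 CPM against 3.98 to 4.48, and saline replicate 7 the highest Rpl39l, 0.152 CPM against at most 0.039. MCC950 replicate 6 held Rpl3l at 0.293 CPM, against 0.564 to 0.728.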

How the results depend on the processing

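With age 70 to 80 members were called higher and none lower in every fit, and the median stayed between 0.54 and 0.66, except that the study's own threshold (unadjusted p under 0.05 and over 2-fold) left 1. It left 0 for MCC950 over saline and 4 for MCC950 over young. The 4 genes higher with MCC950 over saline became 1 higher and 1 lower in thinned libraries, and 0 to 5 without 1 library. Members without overlap were 42 to 69 with age, 0 to 3 for MCC950 over saline and 15 to 52 for MCC950 over young without 1 library. Shares of all genes without overlap are not given for these fits. For MCC950 over young 1 member, Rps4l, was called lower with RLE size factors, in thinned libraries and with DESeq2, and 0 to 1 without 1 library. The summed share was 0.723%, 1.00% and 0.957% in young, saline and MCC950 libraries with pseudogene counts, and 0.178%, 0.247% and 0.344% of all counts. Replicate numbers gave no steady pairing of the libraries, with correlations of -0.061 to 0.35 with age and -0.14 to 0.33 for MCC950 over saline. For MCC950 over young they were -0.013 to 0.40. Replicate 1 gave 0.35, 0.29 and 0.40 in the 3 comparisons. With replicate numbers as a block 75, 2 and 80 members were called higher.

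Of 2367 refits of named genes 2259 kept direction and call, 79 lost a call, 14 gained one and 15 changed sign, none of the latter a called gene. Rpl34 over saline changed to -0.0786 with pseudogene counts. Rpl3l with age was -6.196e-05 with RLE, -0.00149 with DESeq2 and -0.202 to 0.338 without 1 library. Rps19bp1 with age ran from -0.062 to 0.107 and Rps4l from -0.106 to 0.0083 without 1 library, and Rps4l was 0.0183 in thinned libraries. Why these values moved was not tested. Counts limit Rpl39, Rpl39l, Rpl3l and Rpl13, whose intervals are wide or missing.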
